A study of Canis lupus familiaris with 45 samples.

Results

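The genes described here encode enzymes that assemble triglyceride in fat cells. They were chosen by name, as every probe set to which the array's platform table gives the symbol GPAM, AGPAT2, AGPAT3, LPIN1, LPIN2, DGAT1, DGAT2 or MOGAT1. A probe set is the group of short probes on an array that together read 1 transcript. The rule found 15 probe sets of 42924, for 7 of the 8 genes. No probe set carried the symbol AGPAT3, which is not analysed here. Of the 15 probe sets, 13 were above a log2 value of 4 on at least 4 of the 45 arrays and were tested, among 22690 tested in all. Those 13 cover the same 7 genes.

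The study asked how subcutaneous fat responds when dogs may eat freely. It used 9 intact female beagles, 4 years old, randomised to a feeding regimen, and sampled each of them at weeks 0, 4, 8, 12 and 24 after an overnight fast, with 1 array for each biopsy. The control regimen kept dogs 1, 3, 4 and 9 at their starting weight (n = 4), and dogs 2, 5, 6, 7 and 8 were fed ad libitum from week 0 on (n = 5). All 9 ate the same commercial diet, Purina Pro Plan Performance Formula, so the groups differed in amount and not in kind of food. The sample is whole fat tissue, in which fewer cells of a type and less RNA per cell cannot be told apart. All levels below are GCRMA values, background-corrected and normalised array signals on a log2 scale, so a difference of 1 is a doubling. The number of arrays limits the precision.

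Triglyceride is built by adding fatty acids to a glycerol backbone. GPAM, the mitochondrial glycerol phosphate acyltransferase, adds the first fatty acid, AGPAT2 the next to give phosphatidic acid, the lipins LPIN1 and LPIN2 remove the phosphate to give diacylglycerol, and DGAT1 or DGAT2 adds the last. MOGAT1 makes diacylglycerol from monoacylglycerol, a route best known from intestine and liver. AGPAT2 is known for its part in fat: people who lack it have almost no adipose tissue.

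Some arrays stood apart. A mean over 18 skeletal muscle markers separated 10 arrays (7.87 to 13.90) from the other 35 (3.86 to 5.85). Of the 10, 5 were control and 5 ad libitum arrays. At week 0 they are those of control dogs 1 and 3 and ad libitum dogs 5, 7 and 8. At week 24 they are those of control dogs 3 and 4, and no ad libitum dog has one then. The week-8 arrays labelled control dog 9 and ad libitum dog 5 each matched the other dog in the probe sets that separate the dogs, while the other 43 of 45 arrays matched their labels. Week-8 values are given as labelled. All 10 of 10 adipocyte markers were above 4 on all 45 arrays. All week-24 arrays form batch 6 of the labels, while batches 1 to 5 mix weeks 0 to 12, so the groups are compared within 1 batch at week 24 and any change to week 24 within a group is also a change of batch.

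At week 24, 3 of the 7 genes were higher in ad libitum than in control dogs: GPAM at the first step, AGPAT2 at the next and DGAT2 at the last. In limma's moderated test, with p-values adjusted over all 22690 probe sets by the Benjamini-Hochberg method and a threshold of 0.05, 6 of the 13 tested probe sets passed, and all 6 were higher. Among all tested probe sets, 5.46% were past it at week 24 and 3.76% were past it and higher. The median difference was log2 1.41 over the 13 probe sets and 0.01 over all tested ones. At an unadjusted p under 0.05 the members numbered 10 of 13, where 22.7% of all tested probe sets were under it. LPIN1, LPIN2, DGAT1 and MOGAT1 did not pass. At weeks 0, 4, 8 and 12 limma called 0 of the 13, as given below with the counts at an unadjusted p.

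**Figure D1:**
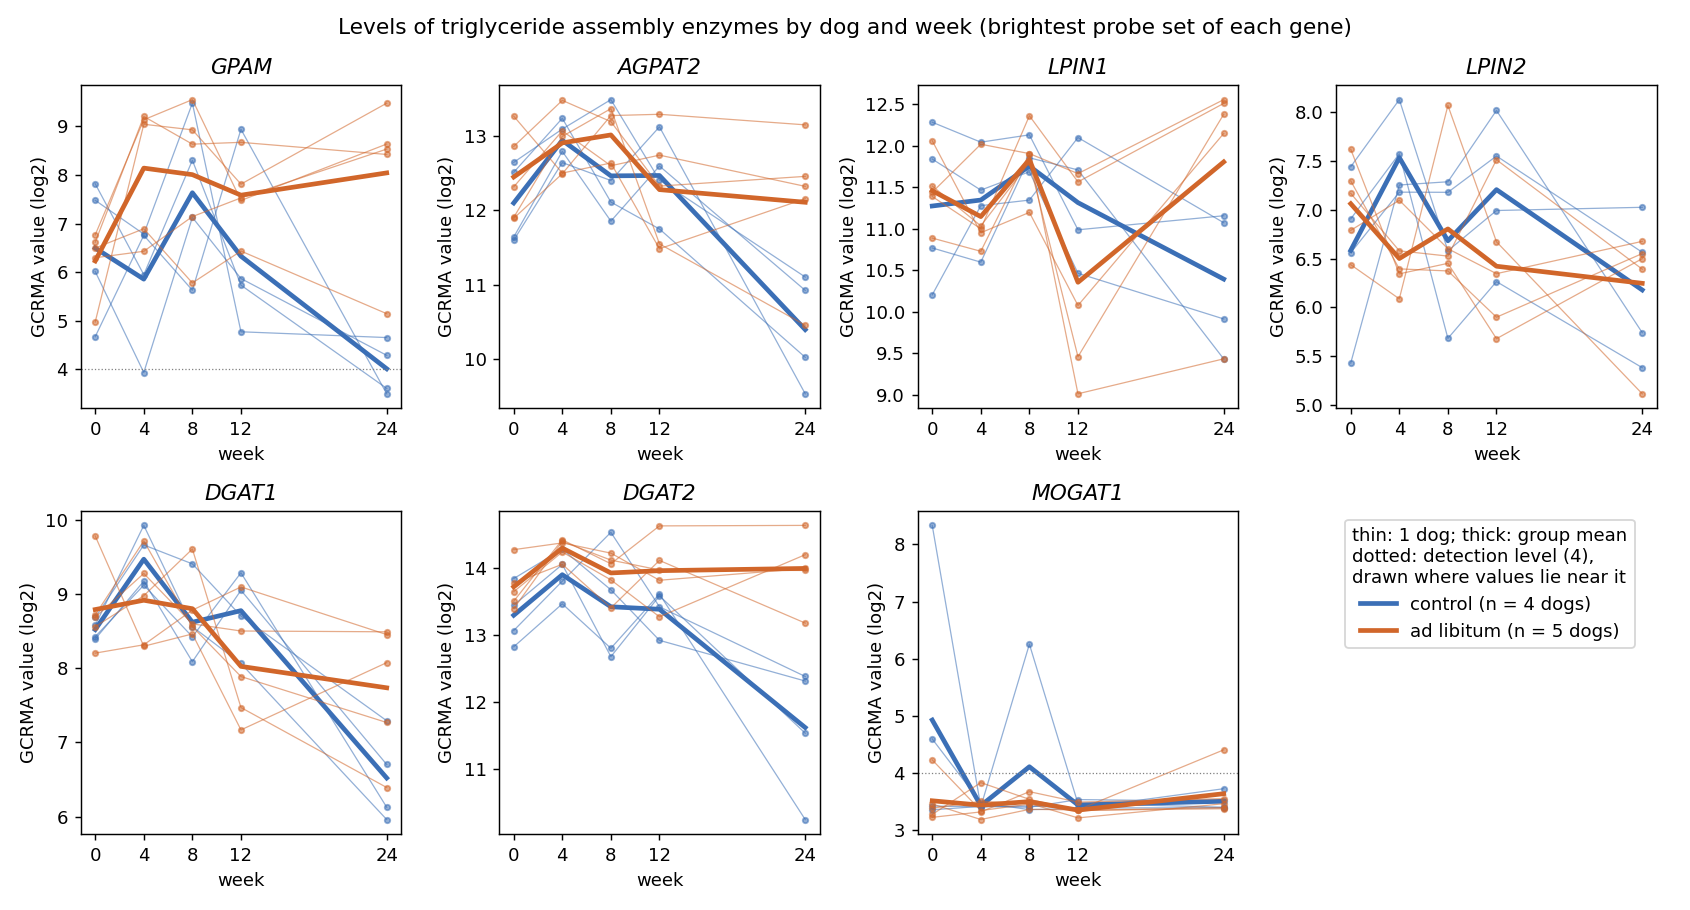
GCRMA level (log2, vertical axis, scaled separately for each gene) against week for the brightest probe set of each gene, with 1 thin line per dog and a thick line for the mean of 4 control or 5 ad libitum dogs. The group means of GPAM (4.01 and 8.04), AGPAT2 (10.40 and 12.11) and DGAT2 (11.62 and 13.99) lie apart at week 24.

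GPAM had the largest difference among the brightest probe sets of the 7 genes, although its excess over DGAT2 did not pass (log2 1.66, exact p = 0.0635 in the pair test given below). Its brighter probe set measured 3.49, 4.29, 3.61 and 4.65 at week 24 in control dogs 1, 3, 4 and 9. In ad libitum dogs 2, 5, 6, 7 and 8 it measured 9.48, 5.14, 8.53, 8.64 and 8.42. The groups did not overlap, dog 5 stood far below the other ad libitum dogs, and 2 of the 4 control values were under the detection level of 4, so no fold is given. The means were 4.01 ± 0.55 (SD, n = 4) in control and 8.04 ± 1.67 (SD, n = 5) in ad libitum dogs, a difference of log2 4.03 (SE 0.879, adjusted p = 0.00732, limma). Among all tested probe sets, 5.41% were higher in ad libitum dogs at week 24 with no overlap of the groups.

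The GPAM difference was not past the threshold without the arrays that carried muscle transcripts (4.11, adjusted p = 0.132), which leaves 2 control arrays at week 24, nor without ad libitum dog 2 (3.67, adjusted p = 0.0534). It was 3.45 (adjusted p = 0.185) with the 3' minus 5' value of actin, a measure of RNA quality, as a covariate and 2.46 (adjusted p = 0.231) with the adipocyte marker mean as one. Over all 25 ad libitum arrays GPAM ran from 4.97 through a median of 7.53 to 9.55, and over the 20 control arrays from 3.49 through 5.91 to 9.48. The highest control value, 9.48, came from the week-8 array labelled dog 9, which matched ad libitum dog 5. A second GPAM probe set was above 4 on 10 of 45 arrays. All of these were ad libitum arrays of weeks 4, 8 and 24, except the week-8 array labelled control dog 9 (4.62). The probe set thus passed the filter through its ad libitum values. At week 24 it measured 3.04 to 3.38 in control dogs and 3.38 to 4.93 in ad libitum dogs. The groups all but met, at 3.3753 in control dog 9 and 3.3758 in ad libitum dog 5, both below the detection level. The probe set's difference was 0.66 (SE 0.331, adjusted p = 0.232, limma). Most of its values lie below the detection level, where differences shrink.

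AGPAT2 was read by 1 probe set. At week 24 control dogs 1, 3, 4 and 9 measured 10.93, 9.54, 10.03 and 11.11, and ad libitum dogs 2, 5, 6, 7 and 8 measured 13.15, 10.46, 12.46, 12.32 and 12.16. Only dog 5 fell within the control range. The means of 10.40 ± 0.74 (SD, n = 4) and 12.11 ± 1.00 (SD, n = 5) differed by log2 1.71 (SE 0.395, 3.27-fold, adjusted p = 0.0102, limma). The call was lost without the arrays with muscle transcripts (1.11, adjusted p = 0.318), with the actin covariate (1.39, adjusted p = 0.220) and with the adipocyte covariate (0.74, adjusted p = 0.269). It was also lost without ad libitum dog 2 (adjusted p = 0.0668), control dog 3 (adjusted p = 0.0671) or control dog 4 (adjusted p = 0.0607). From week 0 to week 12 the AGPAT2 group means stayed between 12.10 and 13.01, and control week 24 was the lowest of the 10 groups.

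The lipins take the next step. LPIN1, the main lipin of fat, which also acts in the nucleus as a partner of transcription factors, was read by 3 probe sets. At week 24 the brightest measured 11.07, 9.43, 9.91 and 11.16 in control dogs 1, 3, 4 and 9. Ad libitum dogs 2, 6, 7 and 8 lay above all of these, at 12.51, 12.38, 12.56 and 12.15, while dog 5 measured 9.43 and lay among the lowest controls. The difference of log2 1.41 (SE 0.522, adjusted p = 0.0991, limma) did not pass the threshold. Without dog 5 it was 2.01 (adjusted p = 0.00391), and with the adipocyte marker mean as a covariate it was -0.04 (adjusted p = 0.989). A second LPIN1 probe set followed it closely (r = 0.991 over 45 arrays), with a difference of 1.32 (SE 0.519, adjusted p = 0.121). The last stayed between 2.19 and 2.34 on all arrays and was not tested.

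Week 24 was the highest of the 5 weeks for LPIN1 in 4 of 5 ad libitum dogs (3 of 5 on the second probe set). Its ad libitum mean was lowest at week 12, 10.36 ± 1.21 (SD, n = 5), with values of 11.57, 9.01, 9.46, 11.67 and 10.08 in dogs 2, 5, 6, 7 and 8. From week 12 to week 24 LPIN1 was higher in 5 of 5 ad libitum dogs, by 0.42 to 2.93, and lower in 3 of 4 control dogs, by up to -2.28. The difference between the groups in this late change, here called the late shift, was 2.37 (SE 0.768, adjusted p = 0.136), which did not pass.

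LPIN2, the lipin better known from liver and from an inflammatory bone disease, gave the smallest of the 7 differences. At week 24 it measured 6.56, 5.74, 5.38 and 7.02 in control dogs 1, 3, 4 and 9 and 6.39, 5.11, 6.55, 6.68 and 6.50 in ad libitum dogs 2, 5, 6, 7 and 8. The ranges overlapped almost fully. The difference was log2 0.07 (SE 0.420, 95% interval -0.79 to 0.92, adjusted p = 0.949, limma). At week 4 all 5 ad libitum dogs (6.09 to 7.10) lay below all 4 control dogs (7.18 to 8.13). The fitted difference there was -1.56 (SE 0.497, adjusted p = 0.336), and 2.77% of all tested probe sets were lower without overlap at that week. At week 4 the groups shared no batch, and batch and feeding are separated only through the arrays of other weeks.

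DGAT1, an enzyme of the endoplasmic reticulum that also recycles fatty acids released by lipolysis, was lower at week 24 than before in most dogs of both groups. On its brighter probe set control dogs 1, 3, 4 and 9 measured 6.70, 6.12, 5.96 and 7.29, and ad libitum dogs 2, 5, 6, 7 and 8 measured 8.45, 6.39, 7.27, 8.49 and 8.07. Ad libitum dogs 5 and 6 lay within the control range and the other 3 above it. The difference of log2 1.21 (SE 0.391, adjusted p = 0.0597, limma) did not pass. It was 1.55 (adjusted p = 0.00583) without dog 5, 0.76 (adjusted p = 0.530) without the arrays with muscle and 0.44 (adjusted p = 0.761) with the adipocyte covariate. The second DGAT1 probe set (r = 0.976 with the first) gave 1.06 (SE 0.494, adjusted p = 0.192).

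DGAT2, the other enzyme of the final step and unrelated to DGAT1 in sequence, was higher at week 24 on 4 of 4 probe sets. On the brightest of them control dogs 1, 3, 4 and 9 measured 11.54, 10.25, 12.31 and 12.38. Ad libitum dogs 2, 5, 6, 7 and 8 measured 14.63, 13.18, 13.96, 14.20 and 13.99. The lowest ad libitum dog, dog 5, lay above the highest control dog, dog 9. The means of 11.62 ± 0.99 (SD, n = 4) and 13.99 ± 0.53 (SD, n = 5) differed by log2 2.37 (SE 0.326, 5.17-fold, adjusted p = 1.30e-04, limma). The less bright probe sets gave differences of 3.26 (SE 0.462, adjusted p = 1.41e-04), 3.59 (SE 0.510, adjusted p = 1.41e-04) and 3.77 (SE 0.547, adjusted p = 1.55e-04). All 4 separated the groups without overlap, and their levels followed each other over the 45 arrays with r of 0.965 to 0.998. They read 1 gene and are not 4 independent results.

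Among the 7 genes, DGAT2 was the one still past the threshold without the arrays with muscle (2.05, adjusted p = 0.00948), with the actin covariate (2.50, adjusted p = 0.00202) and with the adipocyte covariate (1.90, adjusted p = 0.00778). In these settings 64, 29 and 62 of the 22690 tested probe sets were called, in that order, against 1238 in the reported fit. DGAT2 was past the threshold with each dog left out in turn, at 1.91 to 2.62. The exception was a fit of the 9 week-24 arrays alone (adjusted p = 0.0652), which has fewer arrays from which to estimate the spread and which called 1 of the 13 probe sets, another of DGAT2. On the brightest probe set DGAT2 in ad libitum dogs ran from 13.18 through a median of 14.05 to 14.63 over the 25 arrays of all weeks. Its less bright probe sets ran wider there, from 11.23 to 14.19, 10.54 to 13.33 and 9.92 to 12.83. The 4 control values of week 24 were the lowest of all 45.

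**Figure D2:**
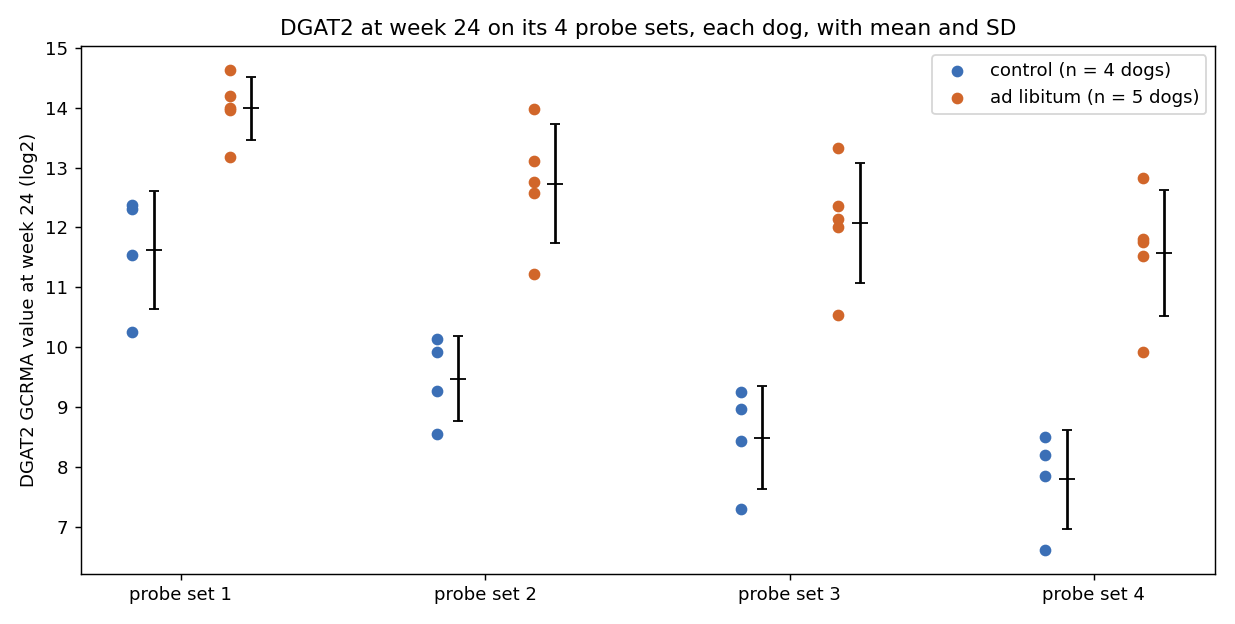
DGAT2 level at week 24 (log2, vertical axis) in each of 4 control and 5 ad libitum dogs on the 4 DGAT2 probe sets, brightest first, with group mean and SD as black bars. On each probe set the lowest ad libitum dog lies above the highest control dog, 13.18 against 12.38 on the first.

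MOGAT1 was mostly below detection. Its brighter probe set was above 4 on 5 of 45 arrays and the other one on 1. The highest values were 8.33 in control dog 3 at week 0, 6.26 in control dog 4 at week 8, 4.60 in control dog 1 at week 0, 4.41 in ad libitum dog 8 at week 24 and 4.23 in ad libitum dog 7 at week 0. The 4 arrays with the highest muscle marker means, 12.75 to 13.90, held 4 of these 5 values. On the 6 other arrays with muscle transcripts (means of 7.87 to 11.36) MOGAT1 was 3.35 to 3.46, and on the 35 without it ran from 3.19 through a median of 3.41 to 4.41. Between the groups its difference at week 24 was log2 0.13 (SE 0.515, adjusted p = 0.913), and at week 0 it was -1.56 (SE 0.529, adjusted p = 1). At week 0 the arrays of control dogs 1 and 3 and of ad libitum dogs 5, 7 and 8 carried muscle transcripts. The part of muscle transcripts in the MOGAT1 values was not tested.

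**Figure D3:**
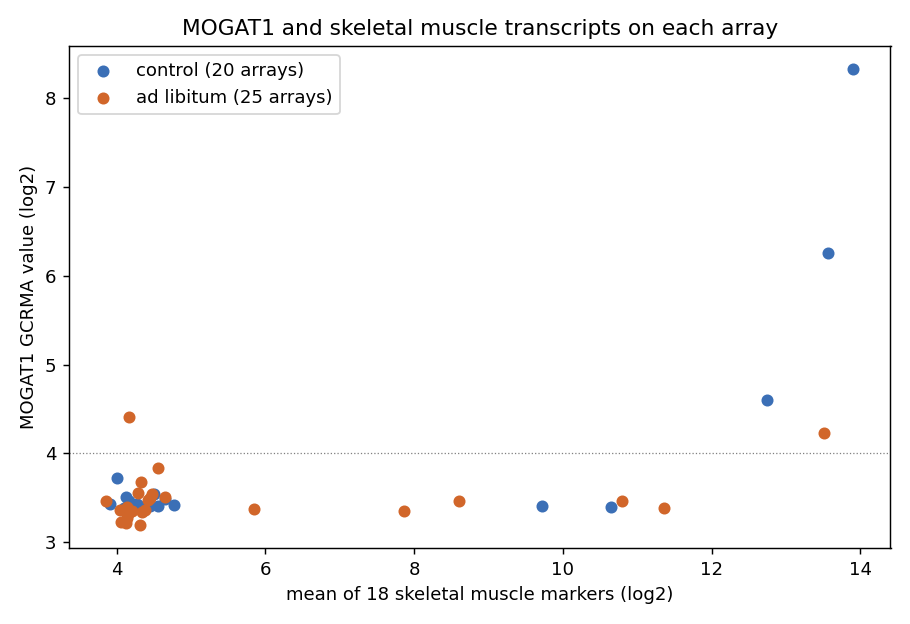
MOGAT1 level (log2) on each of the 45 arrays against the mean of 18 skeletal muscle markers (log2), with the detection level of 4 dotted. The 4 arrays above a muscle mean of 12.75 hold 4 of the 5 MOGAT1 values above 4.

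Before week 24 no member differed past the threshold. Limma called 0 of 13 probe sets at each of weeks 0, 4, 8 and 12, where 0%, 0.0132%, 1.42% and 0.00441% of all tested probe sets were called. At an unadjusted p under 0.05 the members numbered 1, 1, 3 and 1, where 1.38%, 9.08%, 25% and 11.1% of all were under it. GPAM had the widest intervals. Its fitted difference was -0.10 (SE 0.903) at week 0, 1.52 (SE 1.04, adjusted p = 0.600) at week 4, 0.41 (SE 0.883) at week 8 and 1.36 (SE 0.953, adjusted p = 0.524) at week 12. At week 4 ad libitum dogs 2, 7 and 8 measured 9.05, 9.14 and 9.21 and dogs 5 and 6 measured 6.89 and 6.43, against 6.76, 3.93, 5.95 and 6.78 in control dogs 1, 3, 4 and 9. The groups overlapped by dog 6. At week 8, without the 2 arrays that matched another dog, the second GPAM probe set passed with 1.51 (adjusted p = 0.0272, limma), where 50 of 22690 tested probe sets were called. That probe set entered the test through its ad libitum values, so the call is no separate support.

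DGAT2 was higher in ad libitum dogs at each of these weeks by values that did not pass: 0.62 (SE 0.335, adjusted p = 1) at week 0, 0.30 (SE 0.385) at week 4, 0.56 (SE 0.328) at week 8 and 0.36 (SE 0.353) at week 12. The difference at week 0 stood before the feeding change. The week-8 values include the 2 arrays that matched another dog. On these DGAT2 measured 14.53 (labelled control dog 9) and 13.40 (labelled ad libitum dog 5). Its other week-8 arrays ran from 12.68 to 13.67 in control and 13.82 to 14.22 in ad libitum dogs. GPAM measured 9.48 and 5.78 on the 2 arrays, against 5.63 to 8.30 and 7.14 to 9.55 on the others. Fitted week-8 differences without the 2 arrays are not given here for these probe sets. Of the 7 brightest probe sets, 3 had a fitted difference above 0 at week 4, and 2, those of GPAM and DGAT2, at week 12. DGAT1 and LPIN1 were among those below 0 at both weeks. For DGAT1 the values were -0.80 (SE 0.463, adjusted p = 0.567) and -0.87 (SE 0.425, adjusted p = 0.451), and for LPIN1 they were -0.79 (SE 0.617) and -0.96 (SE 0.566, adjusted p = 0.473).

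**Figure D4:**
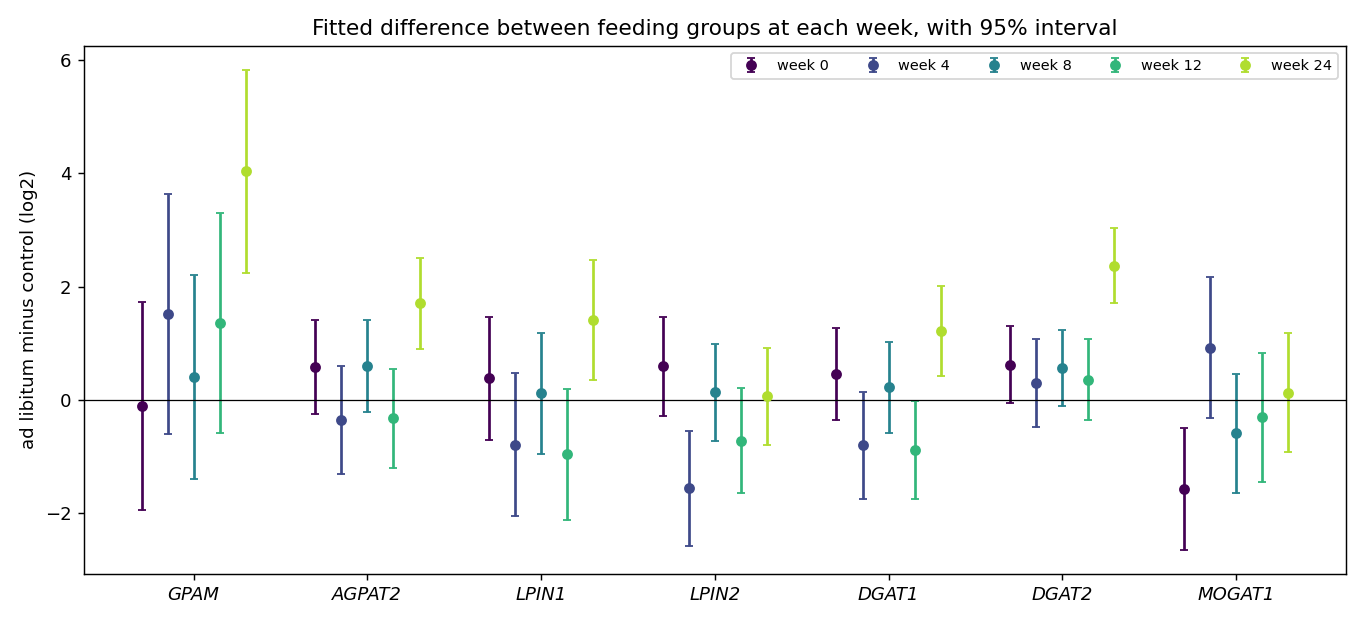
Fitted difference between the feeding groups, ad libitum minus control (log2), at each week for the brightest probe set of each gene, with 95% intervals from the fit. The intervals at week 24 lie above 0 for GPAM (2.25 to 5.82), AGPAT2 (0.91 to 2.51), LPIN1, DGAT1 and DGAT2 (1.71 to 3.03), and include it for LPIN2 and MOGAT1.

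Taken dog by dog, DGAT2 was lower at week 24 than at week 0 in 4 of 4 control dogs, by -0.68 to -2.57, and in 2 of 5 ad libitum dogs. AGPAT2 was lower in 4 of 4 and 3 of 5 dogs, and DGAT1 in 4 of 4 and 4 of 5. GPAM was lower in 4 of 4 control dogs, by -1.18 to -4.21, and higher in 4 of 5 ad libitum dogs, by up to 4.51. Week 24 was the lowest of the 5 weeks in 4 of 4 control dogs for AGPAT2, DGAT1 and DGAT2, and in 3 of 4 for GPAM.

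In the fit, 7 of 13 probe sets fell from week 0 to week 24 in control dogs and 0 rose, where 4.71% of all tested probe sets fell. They were AGPAT2 (-1.65, SE 0.419, adjusted p = 0.0138), DGAT1 (-1.96, SE 0.415, adjusted p = 0.00477, and -2.08 on its second probe set) and DGAT2 (-1.61, SE 0.345, adjusted p = 0.00521, and -2.22 to -2.37 on the others). GPAM stood at -2.48 (SE 0.931, adjusted p = 0.0927). Limma called 0 of 13 without the arrays with muscle, 0 with the actin covariate and 0 without control dog 3. DGAT2 then stood at -1.35 (adjusted p = 0.267), -1.81 (adjusted p = 0.174) and -1.23 (adjusted p = 0.0734). From week 12 to week 24 in control dogs 7 probe sets fell, where 16.6% of all tested probe sets did. All of these are also changes to batch 6, and batch and time cannot be told apart.

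In ad libitum dogs limma called 0 of 13 probe sets from week 0 to week 24, where 4.78% of all were called. At an unadjusted p under 0.05 there were 3 of 13, near the 21.8% of all tested probe sets. DGAT2 stood at 0.14 (SE 0.313), AGPAT2 at -0.51 (SE 0.380), DGAT1 at -1.20 (SE 0.376, adjusted p = 0.0561) and GPAM at 1.66 (SE 0.844, adjusted p = 0.245). From week 0 to week 8 the second GPAM probe set rose by 1.17 (SE 0.330, adjusted p = 0.0326), 1 of 13, where 2.9% of all tested probe sets rose. It had entered the test through its ad libitum values, those of week 8 among them, so this call is no separate support. The brightest GPAM probe set stood at 1.53 (SE 0.876, adjusted p = 0.276) in that comparison.

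The feeding effect takes out each group's start: it is how much more the ad libitum mean moved from its week-0 value than the control mean did. At week 24 limma called 0 of 13 probe sets, where 0.022% of all were called. At an unadjusted p under 0.05 there were 6 of 13, where 10.2% of all were under it. DGAT2 stood at 1.75 (SE 0.466, adjusted p = 0.202), GPAM at 4.14 (SE 1.26, adjusted p = 0.257) and AGPAT2 at 1.13 (SE 0.565, adjusted p = 0.495). The late shift from week 12 to week 24 likewise gave 0 calls (0.0353% of all called; 10 of 13 at an unadjusted p under 0.05, against 19% of all), with 2.01 (SE 0.479, adjusted p = 0.0841) for DGAT2, 2.09 (SE 0.576, adjusted p = 0.104) for DGAT1 and 2.03 (SE 0.581, adjusted p = 0.112) for AGPAT2. Without ad libitum dog 5 the late shift was past the threshold for 9 of 13. The share of all tested probe sets past it in that setting is not given here. The joint test of the 4 weekly feeding effects called 0 of 13 (0.0132% of all called), with 11 of 13 at an unadjusted p under 0.05 against 23.3% of all. The mean over the 4 weeks called 0 (0% of all called), with 2 at an unadjusted p under 0.05 against 4.23% of all. These comparisons share the week-24 or week-0 arrays with those above.

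Ad libitum dog 5 was the lowest ad libitum dog at week 24 in 6 of 6 genes above background. Without it 10 of 13 probe sets were higher in ad libitum dogs instead of 6, and LPIN1 and DGAT1 joined GPAM, AGPAT2 and DGAT2. The calls among all 22690 tested probe sets rose as well, from 1238 to 3097, so the gain is not particular to the members. The mean of dog 5 over the 10 adipocyte markers was 11.72 at week 24, against 13.60 to 13.91 in the other 4 ad libitum dogs. Its macrophage marker mean of 10.32 was the highest of the 9 dogs. Among controls, dog 9 had the highest week-24 value in 6 of 6 genes, and an adipocyte marker mean of 12.79, the highest of the 4. Between the groups the adipocyte marker mean was 12.30 ± 0.57 (SD, n = 4) and 13.30 ± 0.89 (SD, n = 5), with 3 of 10 markers (AQP7, LEP and LIPE) higher at week 24. The fibroblast marker mean was 13.86 ± 0.34 and 13.32 ± 0.50 and the actin 3' minus 5' value 4.79 ± 1.20 and 3.51 ± 0.91, control first. The 3' minus 5' value of GAPDH, which was not used as a covariate, was close in the groups, 2.48 ± 0.33 and 2.50 ± 0.17. The muscle marker mean was 4.00 to 10.65 in control and 3.86 to 5.85 in ad libitum dogs. The mammary epithelium marker mean was 6.30 in control dog 4 and 2.56 to 2.75 in the other 8 dogs. With the muscle marker mean as a covariate GPAM (4.20, adjusted p = 0.00781), AGPAT2 (1.59, adjusted p = 0.0194) and DGAT2 (2.36, adjusted p = 3.63e-04) were past the threshold. LPIN1 (1.32, adjusted p = 0.131) and DGAT1 (1.25, adjusted p = 0.0630) were not. With the actin covariate LPIN1 stood at 1.07 (adjusted p = 0.558) and DGAT1 at 0.86 (adjusted p = 0.517). The part of the fibroblast, macrophage and mammary values in the week-24 differences was not tested.

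On their brightest probe sets the genes did not differ between the groups by the same amount. For each pair of the 6 genes above background the difference between the group differences at week 24 was taken within dogs and tested by a 2-sided exact permutation over the 126 splits of the 9 dogs into 4 and 5. GPAM differed more than LPIN1 by log2 2.62 (exact p = 0.00794, the smallest possible; adjusted over the 15 pairs p = 0.0397), more than LPIN2 by 3.97 and more than DGAT1 by 2.82 (exact p = 0.0159 for both, adjusted p = 0.0397). DGAT2 differed more than LPIN2 by 2.30 (exact p = 0.00794, adjusted p = 0.0397), and AGPAT2 more than LPIN2 by 1.64 (exact p = 0.00794, adjusted p = 0.0397). DGAT1 exceeded LPIN2 by 1.15 (exact p = 0.0159, adjusted p = 0.0397). Between the 2 enzymes of the last step, DGAT2 exceeded DGAT1 by 1.15 (exact p = 0.0556, adjusted p = 0.0926). AGPAT2, LPIN1 and DGAT1 stood within 0.49 of each other, with exact p of 0.198 to 0.675. In all, 6 of 15 pairs passed after adjustment. The 6 kept their sign with each dog left out and without the arrays with muscle. So did every other pair except LPIN1 with DGAT1 (-0.06 to 0.46 with each dog left out), so this does not set the 6 apart. A probe set near background compresses differences, which bears on GPAM in control dogs. The pair test covers the brightest probe set of each gene only. Probe sets of the same gene also gave unequal differences, as described above for DGAT2 and GPAM, so the order holds for these probe sets and not for the genes in general.

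**Figure D5:**
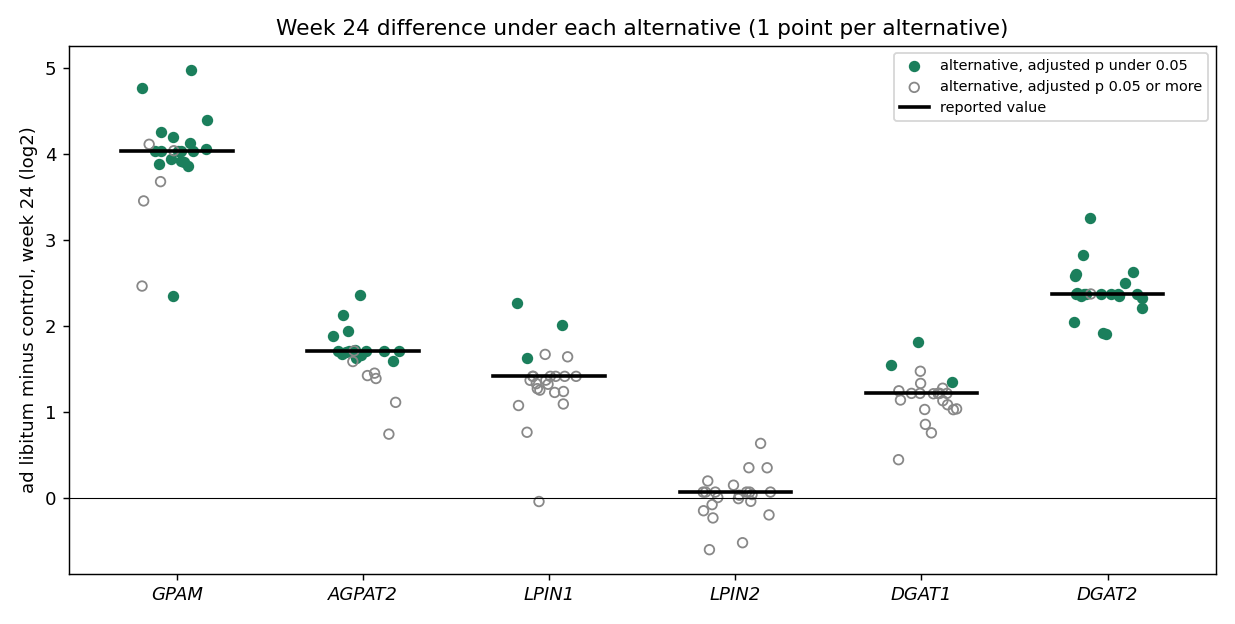
Week-24 difference, ad libitum minus control (log2), for the brightest probe set of 6 genes under each alternative processing (1 point each, filled where the adjusted p was under 0.05), with the reported value as a bar. DGAT2 points are filled in 22 of 23 alternatives, GPAM in 18 of 23 and AGPAT2 in 15 of 22, while those of LPIN2 lie from -0.60 to 0.63.

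Over the 45 arrays AGPAT2 and DGAT1 followed each other most closely of the 21 pairs (r = 0.900, and 0.872 for deviations from the group and week means), and GPAM followed DGAT2 (r = 0.670) more than DGAT1 (r = 0.325). LPIN2 was unrelated to GPAM (r = -0.01). These are descriptions over arrays of 9 dogs that share libraries and batches. Among 9089 genes, the 3 closest to AGPAT2 were BBLN (r = 0.958), HINT2 and TECR, and those closest to DGAT1 were BCKDHA (r = 0.937), HINT2 and ETFB. For AGPAT2 247 genes and for DGAT1 243 reached an r of 0.8, against 3 for DGAT2 and 3 for LPIN2. Closest to GPAM were UHMK1 (r = 0.907), SYPL1 and PDHB, and to DGAT2 PRXL2A (r = 0.851), APOC3 and MDH1. Closest to LPIN1 were ADIPOR2 (r = 0.900), HIBADH and LGALS12, and to LPIN2 FAM104A (r = 0.811), ACO1 and BNIP1. LPIN1 was also the member closest to the adipocyte marker mean (r = 0.896, against 0.451 for LPIN2). MOGAT1 was closest to KLHL38 (r = 0.935), LMO7 and XIRP1, of which XIRP1 is a protein of striated muscle, and on the 35 arrays without muscle transcripts the correlations were 0.331, 0.478 and -0.004.

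The list counts below stand beside these shares of all tested probe sets at week 24: 5.46% called, 3.76% called higher and 22.7% at an unadjusted p under 0.05. Of 14 other glycerolipid enzymes listed, 8 were tested and limma called 0 at week 24 (median log2 0.41). At an unadjusted p under 0.05 there were 3. GPD1, which makes the glycerol phosphate that GPAM uses, stood at 1.12 (SE 0.355, adjusted p = 0.0564), GPAT3, the microsomal counterpart of GPAM, at 1.45 (SE 0.576, adjusted p = 0.127) and LPIN3 at 0.76 (SE 0.346, adjusted p = 0.183). Of 12 tested genes of the phospholipid branches, which draw on the same intermediates, 2 were higher and 0 lower (median 0.13): PEMT, which methylates phosphatidylethanolamine, by 1.12 (SE 0.282, adjusted p = 0.0173) and CHPT1, which makes phosphatidylcholine from diacylglycerol, by 0.98 (SE 0.275, adjusted p = 0.0312). Of 10 tested regulators 2 were higher and 0 lower (median 0.85): INSIG1, a brake on sterol sensing, by 2.29 (SE 0.525, adjusted p = 0.00989) and SREBF1, a transcription factor of lipid synthesis, by 1.67 (SE 0.510, adjusted p = 0.0470).

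Of 7 tested lipases, which take triglyceride apart, and their partners, 4 were higher and 0 lower (median 1.04), where 3.76% of all tested probe sets were higher. PNPLA3, a droplet enzyme, was higher by 4.72 (SE 0.819, adjusted p = 0.00150), the hormone-sensitive lipase LIPE by 1.77 (SE 0.508, adjusted p = 0.0356), ABHD5, which activates adipose triglyceride lipase, by 1.86 (SE 0.560, adjusted p = 0.0435) and MGLL, which cleaves monoacylglycerol, by 1.04 (SE 0.292, adjusted p = 0.0312). LIPE and PLIN1 are also among the adipocyte markers, and so is PPARG of the regulators. These list counts moved with the dogs included, and so did the calls among all 22690 tested probe sets. Against 1238 in the reported fit, those numbered 238 to 961 without any 1 dog other than ad libitum dog 5. Without dog 5 they numbered 3097, with the adipocyte covariate 62, and with no filter on low values 923 of 42924. For the lipases and partners the count was 1 without any 1 of ad libitum dogs 2, 6, 7 and 8 or control dogs 3 and 4, 2 without control dog 9, and 1 with the adipocyte covariate or with no filter on low values. For the phospholipid branches it was 0 without any 1 of ad libitum dogs 2, 6 and 7 or control dog 3, 1 without ad libitum dog 8 or control dog 4, and 0 with the adipocyte covariate. For the regulators it was 3 without ad libitum dog 5, 1 without any 1 of the other dogs and 0 with the adipocyte covariate. Without the arrays with muscle, and likewise with the actin covariate, limma called 0 genes of each of these 4 lists at week 24, while DGAT2 stayed past the threshold. In these settings 64 and 29 of all 22690 tested probe sets were called.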

How the data were processed

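RNA from 45 biopsies was labelled from the 3' end and hybridised to canine Affymetrix arrays, per the labels' protocols. The deposited table holds 1 log2 value per probe set and array. The submitters' processing notes name GCRMA, and the log2 scale was read from the values (0.42 to 17.51, array medians 3.59 to 3.82). Versions, scanner settings and the handling of batches before deposit were not given in the sources used here. GCRMA compresses differences near background.

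Computed here: 111 control probe sets were left out, and 22690 probe sets (52.9% of 42924) above log2 4 on at least 4 arrays were fitted with limma 3.58.1 in R 4.3.3. The model had 10 feeding by week means, the labelled batches 1 to 5 as covariates and the dog as a random block (31 residual degrees of freedom). Tests are limma's moderated tests, 2-sided, with Benjamini-Hochberg adjustment over all 22690. Each dog gave 5 arrays, so the pairing by dog comes from the labels. Deviations of arrays of 1 dog correlated with a median r of 0.0989 over 90 pairs, against -0.03 between dogs, and the estimated block correlation was 0.00562. On simulated data for the week-24 difference (22690 probe sets), limma recovered 22, 38, 47 and 50 of 50 changed probe sets at log2 1, 2, 3 and 4, with 5 false calls. The simulated noise was independent between probe sets and arrays. It held no shared differences in muscle transcripts, RNA quality or adipocyte markers, so the false calls do not cover errors from those.

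Named were all probe sets with exactly 1 platform symbol on the list, the brightest by mean standing for its gene, listed pathway genes past the threshold at week 24 or up to 3 per list with the smallest p, and the 3 genes closest to each member by Pearson's r. The members and lists were chosen with earlier results of these data known. Alternatives were the block, batch term, filters, quantile normalisation, array weights, covariates, other choices of arrays and each dog left out. Leaving out dogs 5 and 9 together, the list counts under alternatives and the pair values with arrays left out were chosen after seeing the data. Python 3.11.15 with pandas 2.3.3 and matplotlib 3.10.9 was used for summaries and plots.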

Additional observations from a re-analysis of the deposited data

Results flagged for a closer look

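Within each group of 4 or 5 arrays of 1 regimen and week, an array was picked out when its gap to the nearest other array exceeded Dixon's 95% critical share of the group's range. Of 70 groups for the brightest probe sets of the 7 genes, 11 held such an array, and chance flags about 1 in 20 groups. Groups of different genes share arrays and are not independent. Ad libitum dog 5 at week 24 was picked out low for GPAM (5.14, others 8.42 to 9.48), LPIN1 (9.43, others 12.15 to 12.56) and LPIN2 (5.11, others 6.39 to 6.68). At week 8 the array that carries the label of dog 5, and matched control dog 9, was high for LPIN2 (8.07, others 6.37 to 6.60) and DGAT1 (9.60, others 8.46 to 8.78). Ad libitum dog 2 at week 0 was low for GPAM (4.97, others 6.30 to 6.77), and ad libitum dog 7 at week 4 was high for LPIN1 (12.02, others 10.73 to 11.04).

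MOGAT1 gave 4 more. On arrays with muscle transcripts it was high in control dog 4 at week 8 (6.26, others 3.36 to 3.43) and ad libitum dog 7 at week 0 (4.23, others 3.23 to 3.46). On arrays without them it was high in ad libitum dog 8 at week 24 (4.41, others 3.38 to 3.56) and control dog 1 at week 4 (3.49, others 3.41 to 3.42), the last below detection.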

How the results depend on the processing

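The week-24 count of 6 probe sets was 6 with no replicate block (GPAM adjusted p = 0.00748, DGAT2 adjusted p = 1.42e-04), and dropping the block, or fitting the dog as a fixed replicate block for changes within dogs, changed no call of the members. The count was 10 with array weights, 10 without dogs 5 and 9, 1 on the week-24 arrays alone, and 4 to 10 with each dog left out (10 without ad libitum dog 5). Among all 22690 tested probe sets the week-24 calls moved as well, from 1238 to 4779 with array weights. They were 2424 without dogs 5 and 9, 3097 without ad libitum dog 5 and 48 on the week-24 arrays alone. Without the muscle arrays they were 64, with the actin covariate 29 and with the adipocyte covariate 62. At week 8 the member count was 1 without the 2 mismatched arrays (50 of all tested probe sets called), and at week 12 it was 1 with array weights. Array weights gave 6 for the week-24 feeding effect, 9 for the late shift (0 to 9 with each dog left out) and 11 for the joint test (0 to 5, with 5 without control dog 1 and 5 without ad libitum dog 5). For the week-24 feeding effect array weights called 1550 of all tested probe sets, against 5 in the reported fit. Shares of all tested probe sets under the alternatives are not given here for the late shift, the joint test and the changes within a group. The control change from week 0 to 24 gave 0 without the muscle arrays, 0 with the actin covariate and 0 to 8 with each dog left out (0 without control dog 3). The ad libitum change gave 1 with quantile normalisation, array weights, the muscle covariate or without the 2 mismatched arrays, 4 with the adipocyte covariate, and 0 to 1 with each dog left out. With the adipocyte covariate the week-24 difference turned sign for LPIN1 (-0.041 and -0.112), LPIN2 (-0.601) and the second DGAT1 probe set (-0.075), and so did the feeding effect for LPIN1 (-0.11 and -0.24) and that DGAT1 probe set (-0.26). LPIN2 was -0.52 without the muscle arrays, -0.15 with the actin covariate, -0.23 with the muscle covariate and -0.20 to 0.35 with each dog left out (-0.08, -0.01 and -0.04 without dogs 3, 6 and 7). MOGAT1 was -0.060 to 0.205 with each dog left out. None of these signs belonged to a called value, and the cause was not tested. Low signal over background limits GPAM in control dogs and MOGAT1.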
